A study of Mus musculus with 6 samples.

Results

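Most mouse Zfp genes encode proteins with C2H2 zinc fingers, short folds in which a pair of cysteines and a pair of histidines hold a zinc ion and which usually read DNA, and sometimes RNA. Many Zfp genes lie in clusters of near copies that carry a KRAB domain, which recruits the corepressor TRIM28 and, through it, histone deacetylases (HDACs) and histone H3K9 methylation. The genes described here are the Zfp genes outside such clusters. They were chosen by name (Zfp, digits and at most 1 letter, without Zfp57) and by position, with fewer than 3 other such genes starting within 500 kb on the same chromosome. Of 370 genes with such a name, 203 met the rule and are called dispersed, and 167 were clustered. The deposited transcriptome held 35976 gene names in all.

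RNA was sequenced from pools of E15.5 ovaries of C57Bl6j mice, with 3 control pools and 3 pools exposed to panobinostat (PB), an HDAC inhibitor. The pregnant females received PB by oral gavage at 5 mg/kg from E6.5, or the vehicle of DMSO and water. According to the labels, the dose was daily and a pool held 4 ovaries, the design text gives 6 to 8 ovaries, and the methods give a dose every other day and a minimum of 8 ovaries. The design text also calls all 6 libraries exposed, so the groups were taken from the sample titles. The counts per gene name summed to between 93599073 and 121180066 per pool, so that 3 counts, taken as the limit of detection, correspond to 0.0257 to 0.0319 CPM (counts scaled by the size of the library). Such limits cover counting error only.

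The germ cell markers Ddx4, Dazl, Sycp3, Stra8, Dppa3 and Mael and the pregranulosa markers Foxl2, Wnt4, Rspo1, Fst, Irx3 and Lgr5 were present in every pool. The 6 germ cell markers summed to 763, 567 and 754 CPM in control 1, 2 and 3 and to 822, 485 and 877 CPM in PB 1, 2 and 3. None of the 6 was called, and 1 of them had an unadjusted p under 0.05. The 6 pregranulosa markers summed to between 782 and 836 CPM in control and between 728 and 825 CPM in PB. Sertoli, Leydig and adrenal, mesonephros, endothelium and macrophage markers each summed to at most 186 CPM, whereas the 3 red blood cell markers ranged from 4741 to 13930 CPM in control and from 8476 to 8912 CPM in PB. On the first principal component (27.7% of the variance), control 1, PB 1 and PB 3 lay at -32.9, -32.6 and -15.3. Control 2, control 3 and PB 2 lay at 15.9, 18.4 and 46.5, so that PB 2 was at the end of a side shared with control pools. Control 3 stood apart on the second component (21.7%), at 49.8.

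Among the 203 dispersed genes, 123 had no other Zfp gene within the window, 41 had 1 and 39 had 2. Chromosome 2 held the most (22), followed by chromosomes 5 (19), 7 (17) and 11 (15). A coding sequence in the GENCODE M21 annotation was found for 199 of them. The longest one of each gene encoded a median of 9 C2H2 motifs (range 0 to 36), compared with a median of 12 in 165 clustered genes. A KRAB A-box pattern was found in 57 of the 199 dispersed genes (28.6%) and in 102 of the 165 clustered genes (61.8%). The search used a fixed pattern, so a gene without a match may still encode the domain. In 11 dispersed genes no match to the C2H2 pattern was found, among them Zfp36, whose RNA-binding fingers are of another kind. A single finger of Zfp941, the dispersed gene with the smallest p-value, is shown so that the unit shared by these genes can be seen. It lies in exon 3, at chr7:140812362-140812424 on the minus strand (mm10), and the capitals mark the codons of the cysteines and histidines that bind zinc.
Zfp941 finger: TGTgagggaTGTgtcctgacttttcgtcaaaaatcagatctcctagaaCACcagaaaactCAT

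Promoters were read for a motif known to bind ZFP143, a transcriptional activator encoded by a dispersed gene. The motif of 11 letters, called SBS, reads as the capitals of Zfp804b below with any letter at its 7th and 8th places, and was searched on both strands from 250 bases before to 50 bases after each start. RefSeq promoters (GRCm38.p6) were matched by symbol for 158 of the 203 dispersed genes (77.8%), which is under the 80% needed, so a statement about the dispersed genes as a set is void. The motif was found in 613 of all 27025 genes (2.27%) and in 46 of the 149 clustered Zfp genes that matched (30.9%). It was found in 13 of the matched dispersed genes. The 250 bases before the start are shown for Zfp804b, which is among the genes with the smallest p-values, and for Zfp334, in which every PB pool lay above every control pool, with the motif in capitals. They lie at chr5:7344379-7344628 for Zfp804b and at chr2:165388260-165388509 for Zfp334, both on the minus strand. In Zfp804b, 99.3% of the counts came from a single-exon transcript within an intron, so its p-value is not that of its annotated transcript. A match of letters is a description and not a binding site.
Zfp804b: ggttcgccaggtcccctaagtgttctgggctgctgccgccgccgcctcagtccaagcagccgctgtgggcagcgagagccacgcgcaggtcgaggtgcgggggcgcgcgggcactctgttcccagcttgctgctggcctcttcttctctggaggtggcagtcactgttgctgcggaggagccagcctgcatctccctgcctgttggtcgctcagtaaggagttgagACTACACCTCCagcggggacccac
Zfp334: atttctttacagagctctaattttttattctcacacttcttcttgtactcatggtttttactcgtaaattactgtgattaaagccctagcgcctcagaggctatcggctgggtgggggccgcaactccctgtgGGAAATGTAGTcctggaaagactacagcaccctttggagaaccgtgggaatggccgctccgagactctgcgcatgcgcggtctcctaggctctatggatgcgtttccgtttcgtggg

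Of the 203 dispersed genes, 198 had enough counts to be tested, and the median level of these was 8.73 TPM (here, counts per base of transcript scaled to the same total in every pool). Zfp352, Zfp616 and Zfp735 had 0 counts in every pool. Zfp572 was at 0 in the control pools and at 5, 6 and 0 counts in PB 1, 2 and 3, and Zfp957 was at 3 counts in each control pool and at 0 in PB. Neither was tested. By level per base, the highest genes were Zfp280d (140 TPM), Zfp503 (63.4 TPM), Zfp664 (57.4 TPM), Zfp703 (50.9 TPM) and Zfp395 (50.6 TPM). The value of Zfp280d was not that of its coding transcripts, because 90.7% of it came from a single-exon transcript of 490 bases assembled within an intron. The lowest tested genes were Zfp488 (0.0379 TPM), Zfp92 (0.0569 TPM), Zfp831 (0.0882 TPM), Zfp474 (0.0929 TPM) and Zfp663 (0.0961 TPM). Each of these 10 genes had overlapping groups except Zfp280d, for which the PB pools (73.5, 74.4 and 75.1 CPM) lay above the control pools (67.6, 73.4 and 65.7 CPM).

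To find out whether PB exposure changed the expression of dispersed Zfp genes, counts of all transcripts of a gene were summed and compared between the groups with edgeR's quasi-likelihood test over 19437 genes. Calls required a 2-fold or larger change together with an FDR (Benjamini-Hochberg) no higher than 0.05. None of the 198 dispersed genes was called, whereas 3 of all genes tested (0.0154%) were. DESeq2 also called 0 dispersed genes, compared with 0.0413% of all genes. It gave 11 of 200 at an unadjusted p under 0.05 (5.5%), compared with 3.64% of all genes. The smallest FDR of a dispersed gene in the edgeR test was 0.888. At an unadjusted p under 0.05 there were 10 dispersed genes (5.05%), close to the 4.47% of all genes tested. At that p, 6 of the 198 were higher in PB, compared with 395 of all 19437 genes (2.03%). Lower in PB were 4 of the 198, compared with 473 of all genes (2.43%). The groups did not overlap for 23 dispersed genes, which is 11.6%, compared with 10.7% of all genes. Every PB pool lay above every control pool for 17 of the 198, compared with 991 of all 19437 genes (5.1%). Every PB pool lay below for 6 of the 198, compared with 1092 of all genes (5.62%). The levels in both groups lay along the line of equality. Of the 198 genes, 174 (87.9%) differed by less than 0.25 on the log2 scale, compared with 76.9% of all genes and 89.2% of clustered Zfp genes. In 3 sets of 66 dispersed genes by level, the share was 74.2%, 95.5% and 93.9% from lowest to highest. All genes within the same ranges of level were at 57.1%, 90.1% and 94.5%. The lowest range did not match the levels, with a median of 2.51 TPM for the dispersed genes and 0.618 TPM for all genes. The median standard errors there were 0.15 and 0.30, so the shares of the lowest range are not compared at equal level. In the bulk RNA of a pool, fewer cells of a type and less RNA per cell cannot be told apart.

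**Figure D1:**
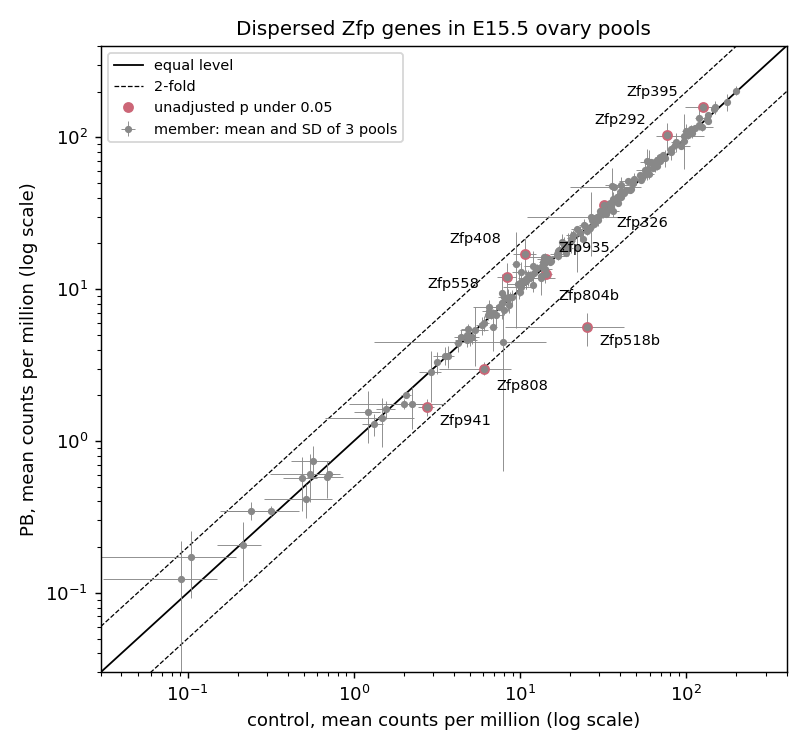
Mean CPM of 198 dispersed Zfp genes in 3 control pools (x axis, log scale) and 3 PB pools (y axis, log scale), with SD bars, the line of equal level and dashed lines at 2-fold. The 10 genes with an unadjusted p under 0.05 are named, and 2 of the 198 genes changed by 2-fold or more.

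The median log2 fold change of the dispersed genes was 0.05, and 137 of 198 (69.2%) were above 0, compared with a median of 0.00 and 50.7% for all genes tested. The clustered genes had a median of 0.04, with 114 of 166 (68.7%) above 0. Summed over the dispersed genes, the level was 6949, 6736 and 7028 CPM in control 1, 2 and 3 and 7270, 6948 and 7325 CPM in PB 1, 2 and 3. The groups overlapped, because PB 2 lay below control 3, and the means were 6904 ± 151 CPM in control and 7181 ± 204 CPM in PB (SD, n = 3). Split by level into 3 sets of 66 genes, the median log2 fold change was 0.05 in the lowest, 0.06 in the middle and 0.04 in the highest set. With 2 neighbours, just inside the rule, 39 genes had a median of 0.06, and with 3, just outside it, 18 genes had one of 0.04. Dispersed genes with the pattern (56 tested) had a median of 0.05, as had those without it (139 tested), and the median was 0.04 for genes with 0 to 4 motifs (47 tested) and 0.05 for genes with 12 or more (53 tested).

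**Figure D2:**
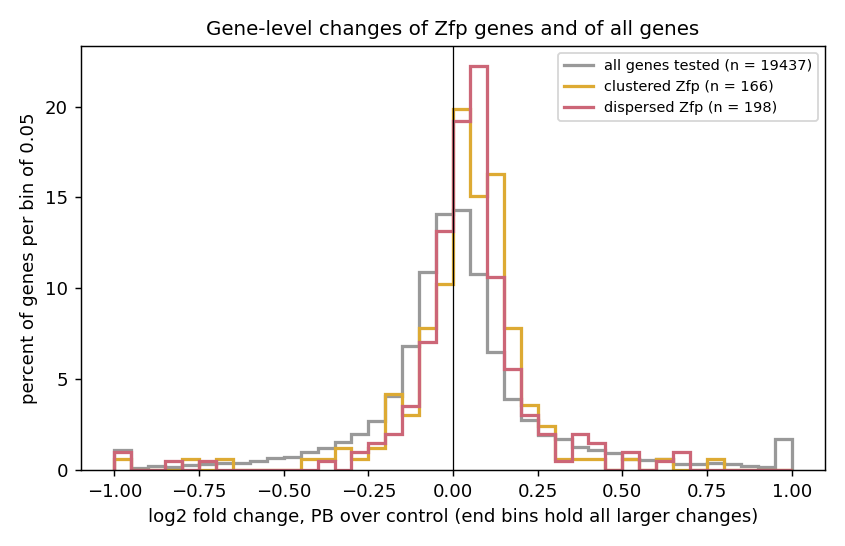
Percent of genes per bin of log2 fold change (PB over control) for 198 dispersed Zfp genes, 166 clustered Zfp genes and 19437 genes tested, with all changes beyond 1 placed in the end bins. Both Zfp curves peak just above 0, with medians of 0.05 and 0.04.

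Ranked by p-value, the first 5 genes of each direction were Zfp326, Zfp408, Zfp292, Zfp558 and Zfp935, higher in PB, and Zfp941, Zfp518b, Zfp808, Zfp804b and Zfp141, lower in PB. For none of them did the edgeR FDR fall under 0.888, so that each difference is given as a value and not as a call. Zfp941 (chr7:140807453-140822203), which carries a KRAB pattern, was at 3.04, 2.45 and 2.72 CPM in control 1, 2 and 3 and at 1.47, 1.64 and 1.92 CPM in PB 1, 2 and 3. Every PB pool lay below every control pool, with a log2 fold change of -0.70 ± 0.16 (SE, n = 3 per group, FDR = 0.888). Zfp518b (chr5:38668484-38684826), whose product is known to interact with the H3K9 methyltransferase EHMT2, was at 26.9, 7.33 and 41.4 CPM in control and at 4.13, 5.88 and 6.86 CPM in PB. The groups did not overlap, but control 2 lay close to the PB pools and the control pools spread widely, with a log2 fold change of -2.16 ± 0.59 (FDR = 0.888). Zfp808 (chr13:62129890-62173938), a KRAB gene with 22 motifs, was at 8.36, 2.94 and 6.9 CPM in control and at 3.2, 3.14 and 2.66 CPM in PB. Control 2 lay within the PB range, so that the groups overlapped. Zfp804b was at 13.5, 15.6 and 13.9 CPM in control and at 12.5, 12.9 and 12.3 CPM in PB, but 99.3% of its counts came from a single-exon transcript within an intron. Its annotated transcript, NM_001163223.1, had 6, 6 and 6 counts in control and 8, 11 and 24 in PB, the opposite order to the gene sum. Zfp141 was at 18.2, 19.3 and 18.8 CPM in control and at 17.8, 16.7 and 17.2 CPM in PB, and its groups did not overlap.

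Among the genes with higher values in PB, Zfp326 (chr5:105876568-105915818), which takes part in coupling transcription to splicing, was at 31.5, 31.7 and 32.4 CPM in control and at 34.8, 35.4 and 37.5 CPM in PB. The groups did not overlap and the difference was small, 0.17 ± 0.05 on the log2 scale (FDR = 0.888). Zfp292 (chr4:34803110-34884936), which encodes 14 motifs, was at 76.7, 75.5 and 77.3 CPM in control and at 119, 78.8 and 113 CPM in PB, a log2 fold change of 0.44 ± 0.15 (FDR = 0.888). PB 2 was close to the control pools, whereas PB 1 and PB 3 lay well above them. Zfp408, which is linked to retinal vessels, was at 10.6, 9.1 and 12.6 CPM in control and at 21, 11.9 and 18.4 CPM in PB. Zfp558 was at 9.03, 7.1 and 8.96 CPM in control and at 14.1, 8.72 and 13.1 CPM in PB. Zfp408 overlaps Arhgap1 on the opposite strand. In Zfp408 and Zfp558 PB 2 was again the lowest PB pool and lay within the control range. The sum of the germ cell markers was also lowest in PB 2, as were all of them but Dppa3 (12.5 CPM in PB 2, compared with 11.9 CPM in control 2 and 12.2 CPM in PB 1), and their part in these differences was not tested. Zfp395 was at 114, 156 and 106 CPM in control and at 161, 166 and 152 CPM in PB, and control 2 lay within the PB range. Zfp935 was at 14.7, 13.9 and 14.1 CPM in control and at 16.5, 15.7 and 15.4 CPM in PB without overlap, but its known transcripts alone gave a log2 fold change of -0.53 ± 1.49, opposite in sign to the 0.15 ± 0.06 of the sum and within its error of 0.

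**Figure D3:**
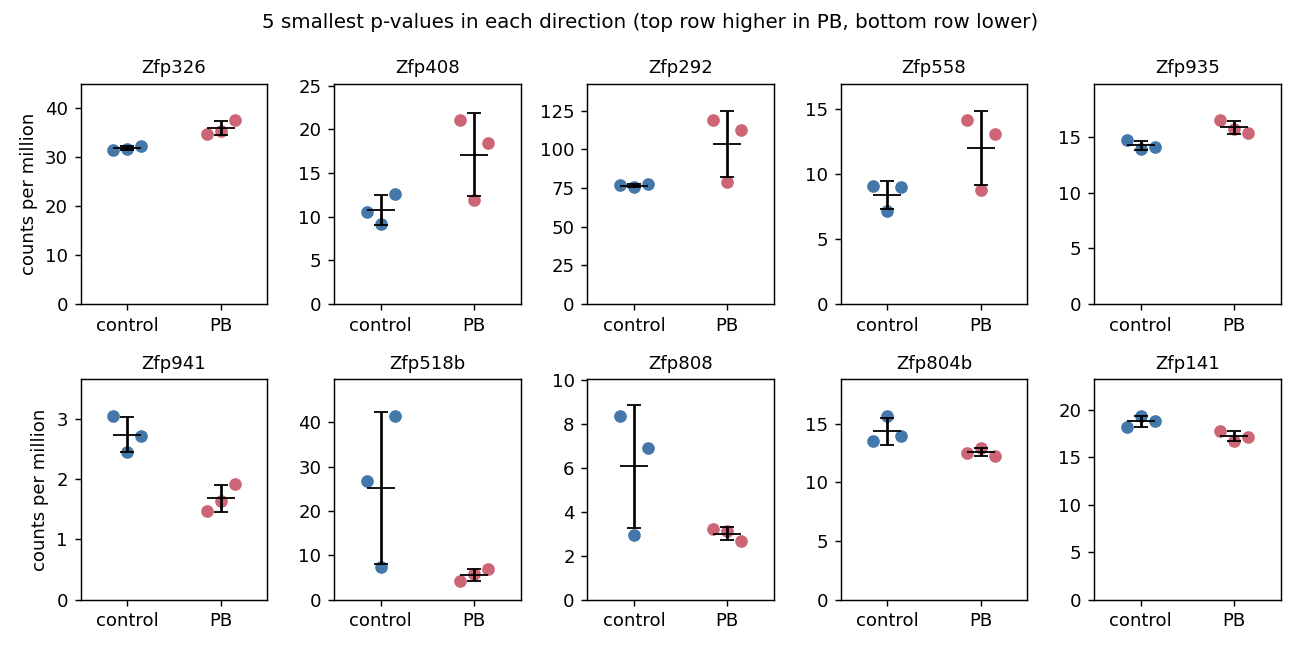
CPM of the dispersed Zfp genes with the 5 smallest p-values among those higher in PB and the 5 smallest among those lower, in each of 3 control pools (blue) and 3 PB pools (red), with the mean and SD in black. Each y axis starts at 0. The groups overlap for Zfp408, Zfp558 and Zfp808, and the 3 control pools of Zfp518b spread from 7.33 to 41.4 CPM.

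Without PB 2, the number of dispersed genes at an unadjusted p under 0.05 was 26 (13.1%, compared with 12.3% of all genes) in place of 10. At that p, 23 of the 198 dispersed genes were higher in PB, compared with 1470 of all 19823 genes (7.42%). Lower in PB were 3 of the 198, compared with 972 of all genes (4.9%). In either direction, 4 dispersed genes had such a p without control 1 (2.02%, compared with 3.06% of all genes). There were 4 without PB 3 (2.02%, compared with 2.78%) and 6 without control 3 (3.03%, compared with 3.72%). Without PB 2, Zfp292 (log2 fold change of 0.60 ± 0.04, FDR = 0.0207 by edgeR) and Zfp541 (0.66 ± 0.06, FDR = 0.0279) had an FDR under 0.05 and a change of less than 2-fold, so that neither was called. Under this setting 33 of all genes (0.166%) had an FDR of at most 0.05.

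Among the dispersed genes with a role in pluripotency or the germ line, 9 of the 10 listed were members, all were tested, and none was called (smallest FDR of 0.888). Their median log2 fold change was 0.09, with 6 above 0. Zfp541, which is known from a histone deacetylase complex of spermatocytes in meiosis, was at 36.9, 33.8 and 36.6 CPM in control and at 56.7, 30 and 56.2 CPM in PB. PB 1 and PB 3 were above every control pool and PB 2 was below every one of them (log2 fold change of 0.41 ± 0.23, FDR = 0.888). Zfp318, needed for male fertility and for the choice of IgD transcripts, was at 123, 111 and 125 CPM in control and at 144, 109 and 152 CPM in PB, again with PB 2 as the lowest pool. Zfp42, the pluripotency marker also called REX1, was at 3.28, 2.41 and 3.04 CPM in control and at 3.16, 1.68 and 3.7 CPM in PB. Zfp143 was at 16.6, 17.3 and 16.6 CPM in control and at 17.9, 18.5 and 17.4 CPM in PB, and Zfp37 at 12.1 CPM in every control pool and at 12.5, 13.8 and 12.4 CPM in PB. For both the groups did not overlap.

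Of the 6 genes listed for imprinting and retroelement silencing, 2 were dispersed. Zfp445, which keeps imprinted regions methylated, was at 82.5, 88.1 and 84.8 CPM in control and at 88.7, 89.2 and 89.1 CPM in PB. Its PB pools all lay above the control pools by a small margin, with a log2 fold change of 0.06 ± 0.04 (FDR = 0.888). Zfp932, whose product binds endogenous retroviruses, was at 7.5, 11.1 and 11.6 CPM in control and at 9.66, 11.2 and 9.94 CPM in PB, with overlapping groups.

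All 15 listed genes of chromatin complexes and corepressors were members and were tested, and 0 were called by either test, with a median log2 fold change of 0.04. Apart from Zfp518b, no gene of this list had groups that did not overlap. Zfp217, a partner of the LSD1-CoREST corepressor, was at 100, 91.6 and 97.1 CPM in control and at 101, 80.2 and 103 CPM in PB. Zfp335, a regulator of neural progenitors, was at 23.4, 23.1 and 25 CPM in control and at 23.3, 21.6 and 19.7 CPM in PB. Zfp451, a SUMO ligase, varied within each group, from 60.5 to 115 CPM in control and from 56 to 132 CPM in PB, and its lowest values were in control 2 and PB 2.

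Of the 15 genes listed for development and differentiation, 13 were members, and their median log2 fold change was -0.01, with 6 above 0. Only Zfp292 had an unadjusted p under 0.05. Zfp423, a factor of adipocyte and cerebellar development, was at 34.2, 34.4 and 39.6 CPM in control and at 31.8, 35.7 and 30.5 CPM in PB. Zfp703, a cofactor studied in breast tissue, differed by -0.01 ± 0.07 on the log2 scale, and Zfp503, among the most abundant members, by -0.03 ± 0.09. The 13 genes for RNA binding, ribosome, splicing, spindle and ubiquitin had a median log2 fold change of 0.04, with 9 above 0, and Zfp326 and Zfp706 were the members whose groups did not overlap. Zfp36 (tristetraprolin), which speeds the decay of AU-rich mRNAs, was at 8.28, 8.13 and 7.53 CPM in control and at 7.05, 7.86 and 6.86 CPM in PB. Zfp598, a ubiquitin ligase that detects collided ribosomes, changed by -0.02 ± 0.06 on the log2 scale, and Zfp207, a spindle protein also called BuGZ, by -0.10 ± 0.11.

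The deposited counts are per transcript, so that each dispersed gene could also be read as a set of isoforms. The 203 genes had 1154 transcripts with a median of 4 per gene and at most 37 (Zfp207), and 788 were tested. By edgeR 0 of them were called, with 28 (3.55%) at an unadjusted p under 0.05, 17 higher and 11 lower, compared with 3.56% of all transcripts, whereas 17 of all 51227 transcripts (0.0332%) were called. By DESeq2, the test the study used, 15 transcripts of 13 dispersed genes were called, 7 higher and 8 lower, which is 1.45% of 1033 and close to the 1.47% of all transcripts. At an unadjusted p under 0.05 DESeq2 gave 88 (8.52%), compared with 6.52% of all transcripts.

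The transcript with the smallest p in edgeR was XM_006538732.1 of Zfp46, a KRAB gene, with 284, 261 and 272 counts in control 1, 2 and 3 and 0 in every PB pool. It was at least 93.6-fold lower in PB, computed against 3 counts per pool (FDR = 0.147 by edgeR and 3.50e-15 by DESeq2). It held 4.18% of the gene's counts in control, and the gene sum did not follow, at 64, 64.5 and 60.7 CPM in control and 63.7, 64 and 61.7 CPM in PB. XM_006500647.3 of Zfp512b, known to recruit the NuRD complex, had 1701, 1968 and 1829 counts in control and 885, 852 and 910 in PB. This is a log2 fold change of -1.09 ± 0.13 (FDR = 0.190 by edgeR and 3.05e-16 by DESeq2), and the gene sum differed by 0.05 ± 0.06. Another Zfp512b transcript, NM_001164597.1, was at 0 throughout the control group and at 0, 3385 and 4230 counts in PB 1, 2 and 3. XM_006506201.2 of Zfp384 had 80, 75 and 78 counts in control and 18, 25 and 33 in PB, and held 1.42% of that gene's counts in control (FDR = 0.593 by edgeR and 2.09e-05 by DESeq2). NM_173364.5 of Zfp445 had 289, 255 and 1617 counts in control and 8, 13 and 1 in PB (FDR = 0.725 by edgeR and 1.91e-05 by DESeq2), while its gene sum differed by 0.06 on the log2 scale. NM_177475.3 of Zfp280b was higher in PB, with 3089, 2936 and 2601 counts in control and 4207, 3702 and 5116 in PB, and XM_006513943.2 of the same gene was lower, with 935, 1148 and 758 counts in control and 452, 523 and 329 in PB. The Zfp280b gene sum differed by 0.07 ± 0.05 on the log2 scale. Among transcripts higher in PB, XM_011246996.2 of Zfp397 had the smallest p in edgeR (FDR = 0.647 by edgeR and 0.00122 by DESeq2). It had 46, 182 and 51 counts in control and 723, 619 and 539 in PB. XM_017313342.1 of Zfp280d had 24, 21 and 18 counts in control and 53, 41 and 82 in PB. MSTRG.7513.2 of Zfp97 had 31, 29 and 30 in control and 181, 763 and 76 in PB. MSTRG.5773.10 of Zfp395 had 523, 941 and 710 in control and 1086, 1286 and 1513 in PB. Of the transcripts named here, DESeq2 called those of Zfp46, Zfp384, Zfp445, Zfp397, Zfp280d and Zfp97, both of Zfp512b and XM_006513943.2 of Zfp280b.

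**Figure D4:**
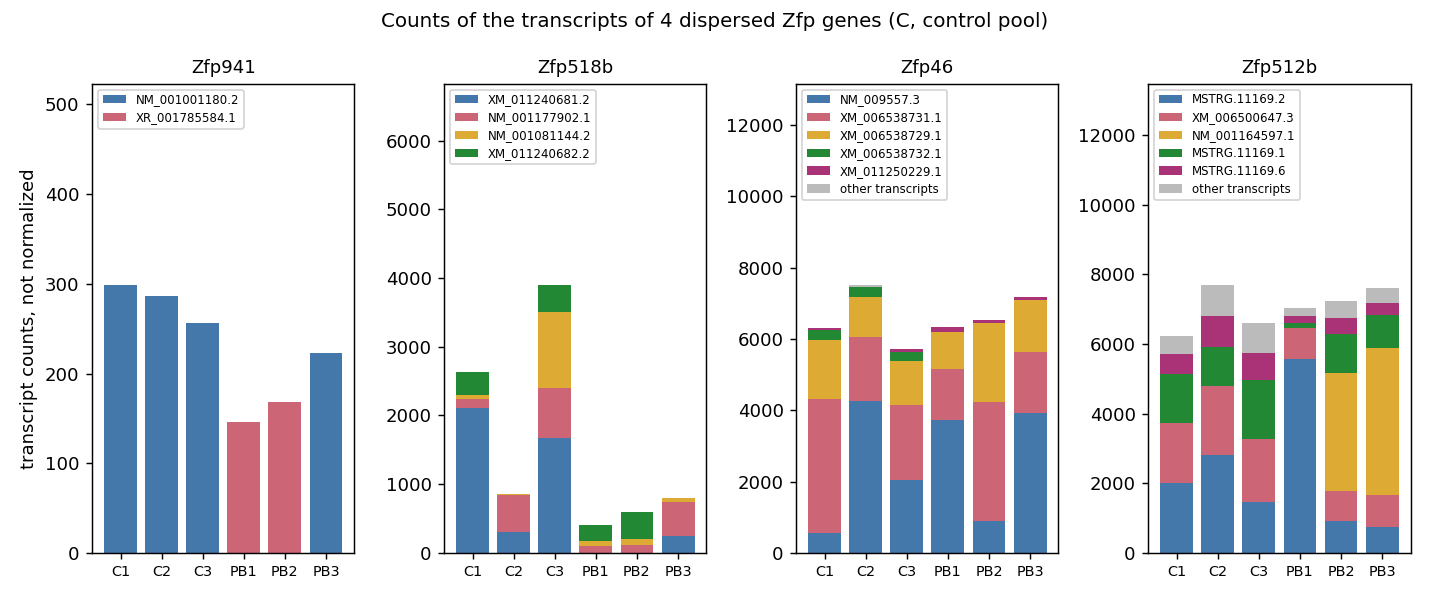
Counts of the transcripts of Zfp941, Zfp518b, Zfp46 and Zfp512b in 3 control pools (C1 to C3) and 3 PB pools, not normalized, stacked by transcript with those beyond the 5 most abundant in grey. In Zfp941, NM_001001180.2 had 299, 286 and 256 counts in control and 223 in PB 3, and XR_001785584.1 had 146 and 168 in PB 1 and PB 2.

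The division of counts among transcripts also varied between pools of 1 group. In Zfp941, NM_001001180.2 had 0 counts in PB 1 and PB 2 but 223 in PB 3, and XR_001785584.1 had 146 and 168 in PB 1 and PB 2 and 0 elsewhere, so that each pool held only 1 of them. In Zfp518b, XM_011240681.2 had 2113, 305 and 1679 counts in control and 0, 0 and 239 in PB, while NM_001081144.2 had 63, 14 and 1103 in control and 62, 90 and 57 in PB. In Zfp503, the assembled transcript MSTRG.5365.5 had 18078 counts in control 2 and 0 in every other pool, while the gene sum was 167 CPM there and between 153 and 193 CPM elsewhere. A switch was counted where all control pools shared 1 most abundant transcript and all PB pools shared another. Of the 171 dispersed genes with 2 or more transcripts, 0 switched, compared with 51 of 13192 genes (0.387%). The most abundant transcript was the same in all 6 pools for 84 of the 171 (49.1%), compared with 55.5% of all genes. The control pools alone disagreed on it for 61 (35.7%), compared with 32.3% of all genes.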

How the data were processed

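The authors aligned stranded poly(A) RNA-seq reads to mm10 with HISAT2 2.1.0, assembled transcripts with StringTie 1.3.5 on RefSeq and deposited raw counts per transcript. How reads shared by near copies were divided is not given in the sources used here. The deposited table of the authors' DESeq2 1.30.0 comparison was used only for gene names and class codes. Its fold changes, p-values and 6 columns of normalized values were not used. Counts of transcripts with the same gene name were summed, and gene positions came from the deposited annotation. Genes and transcripts were filtered (filterByExpr, minimum count of 10, minimum total of 15), scaled by TMM and compared with the edgeR 4.0.16 quasi-likelihood test in R 4.3.3. DESeq2 1.42.0 was an alternative, run without this filter on the 26613 genes and 79895 transcripts that had any counts. The standard error was the log2 fold change divided by the square root of F. The scripts were tested on simulated data. Genes were named as the 5 of lowest p-value among those higher and among those lower in PB, the 5 highest and 5 lowest levels, the role lists, and transcripts by the same p-value rule. Zfp334, other transcripts of these genes and genes singled out without PB 2 were named after their values were seen. The members and lists were chosen with earlier results of these data known. Alternatives were other size factors, no filter or a stricter one, a replicate block, known or sense transcripts only, an FDR of 0.1, windows of 250 and 1000 kb, and leaving out each pool.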

Additional observations from a re-analysis of the deposited data

How the results depend on the processing

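No dispersed Zfp gene was called under any alternative, including an FDR of 0.1. The number at an unadjusted p under 0.05 was 10 (5.05%, compared with 4.47% of all genes). With a pool left out, it was 4 without control replicate 1 or PB replicate 3 (2.02%, compared with 3.06% and 2.78%). It was 6 without control replicate 3 (3.03%, compared with 3.72%) and 26 without PB replicate 2 (13.1%, compared with 12.3%). Under the other alternatives it was 7 to 11 (3.54% to 5.5%), and the share of all genes was 3.53% to 5.61%. The median log2 fold change ranged from 0.04 to 0.06. Sense transcripts only was chosen after seeing the data. With the replicate number as a block, 0 genes were called, 10 had an unadjusted p under 0.05 and the median was 0.05. The deviations of same-numbered pools correlated at 0.093, 0.147 and -0.018, and those of pools with different numbers at -0.167 to 0.096. With 3 pools per group, these values cannot tell whether same-numbered pools were paired. Of the transcripts, DESeq2 called 15 and edgeR 0 under every alternative, and the cause was not tested. Some of the 15, such as NM_001164597.1 of Zfp512b, had not passed the filter of the main edgeR test. No gene switched its top transcript by count per base or among known transcripts. Of 516 alternative values of 40 named genes, 482 kept their direction. With known transcripts only, the log2 fold change turned to 0.79 ± 1.99 for Zfp503, 0.0754 ± 0.0768 for Zfp598 and -0.0160 ± 0.65 for Zfp451. It turned to -0.53 ± 1.49 for Zfp935 and -0.0019 ± 0.0484 for Zfp46. Each of these values was within its error of 0. For Zfp46, near 0 throughout, it was also -0.0024 with DESeq2 size factors, -0.0029 with the DESeq2 test, -0.0036 with no filter, -0.0018 with the stricter filter and -0.0027 with sense transcripts only. With a pool left out, it ranged from -0.18 to 0.0220 for Zfp207, -0.0932 to 0.0786 for Zfp217, -0.27 to 0.24 for Zfp42, -0.16 to 0.38 for Zfp451, -0.0307 to 0.0171 for Zfp46, -0.32 to 1.10 for Zfp488, -0.13 to 0.0393 for Zfp503, -0.0654 to 0.0251 for Zfp598, -0.0513 to 0.0423 for Zfp703, -0.16 to 0.49 for Zfp831, -0.46 to 0.16 for Zfp92 and -0.14 to 0.14 for Zfp932. These 12 genes differed by less than their error. The median standard error was 0.15 in the 66 dispersed genes with the lowest levels and 0.07 in the 66 with the highest.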
